A study of Rattus norvegicus with 24 samples.

Results

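The cholesterol synthesis genes described here are Hmgcs1, Idi1, Fdft1, Sqle, Cyp51, Sc5d and Dhcr7, which code for enzymes of the pathway, and Insig1, which codes for its sterol-sensing brake. Members were chosen by name, as every probe set whose single gene symbol in the platform annotation was one of these 8. This gave 12 probe sets of 7 genes, out of 31099 probe sets on the array, and all 12 were bright enough to be tested among 18625 probe sets of 10205 named genes. Hmgcs1 was matched to no probe set and was not analysed here. Uptake of cholesterol had no member of its own among the 8, so the uptake genes appear only as a companion list.

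RNA came from tissue labelled as forebrain of 24 male F344 rats aged 11 to 12 weeks, an inbred strain also called Fisher 344, with 1 Affymetrix array per rat. Each rat received a single dose of vehicle (0 mg/kg) or of 5, 20, 50, 200 or 500 mg/kg D-serine and was killed 96 h later, with 4 rats in each of the 6 groups. D-serine binds the NMDA receptor together with glutamate, and each dose is set against vehicle to ask which of these transcripts changed. A small piece of forebrain was taken per rat, the labels do not say from which region, and replicate numbers below only name rats.

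The brain makes nearly all of its own cholesterol, because lipoproteins do not cross the blood-brain barrier, and much of it ends up in myelin, the membrane wrapped around axons by oligodendrocytes. Astrocytes also make cholesterol and pass it to neurons on apolipoprotein E. The enzymes of the pathway are switched on together by the transcription factor SREBP2, which the escort protein Scap carries out of the endoplasmic reticulum when sterols are low. Insig1 holds Scap back when sterols are high, and its own gene is an SREBP target. In the order of the pathway, Hmgcs1 makes HMG-CoA, Idi1 interconverts the isoprenoid building blocks, Fdft1 (squalene synthase) makes squalene and Sqle oxidises it. Cyp51 then removes a methyl group from lanosterol, Sc5d introduces a double bond into the sterol ring, and Dhcr7 reduces a late sterol precursor.

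The promoters of Insig1 and Idi1 are shown because this pair had the highest correlation between rats among the genes' brightest probe sets, and that of Sc5d because 1 of its probe sets was the only one past the tests by dose. Each sequence covers 250 bases before to 50 bases after the RefSeq gene start on the GRCr8 assembly and is written along the gene's own strand. Capitals mark matches to the CCAAT box, which binds the factor NF-Y, in these promoters on the opposite strand.
Insig1 (chr4:8057720-8058019, minus strand): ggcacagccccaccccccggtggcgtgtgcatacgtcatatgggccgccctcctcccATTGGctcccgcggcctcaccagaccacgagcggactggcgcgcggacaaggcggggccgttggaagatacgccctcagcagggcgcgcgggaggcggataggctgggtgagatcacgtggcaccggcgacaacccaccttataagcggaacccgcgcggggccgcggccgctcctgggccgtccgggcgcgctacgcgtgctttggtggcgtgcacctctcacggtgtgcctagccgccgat
Idi1 (chr17:66547475-66547774, minus strand): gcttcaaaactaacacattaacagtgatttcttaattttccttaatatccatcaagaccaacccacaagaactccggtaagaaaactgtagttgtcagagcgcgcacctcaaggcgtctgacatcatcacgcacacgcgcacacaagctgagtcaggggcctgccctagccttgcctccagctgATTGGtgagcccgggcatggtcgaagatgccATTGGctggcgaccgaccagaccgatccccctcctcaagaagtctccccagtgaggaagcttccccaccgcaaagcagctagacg
Sc5d (chr8:51538228-51538527, minus strand): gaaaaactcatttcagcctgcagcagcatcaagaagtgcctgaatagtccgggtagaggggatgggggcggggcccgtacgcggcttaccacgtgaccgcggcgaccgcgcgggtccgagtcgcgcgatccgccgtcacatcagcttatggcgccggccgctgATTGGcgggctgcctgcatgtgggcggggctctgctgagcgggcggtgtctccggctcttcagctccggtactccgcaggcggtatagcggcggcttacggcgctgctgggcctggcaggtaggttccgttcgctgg

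RefSeq promoters were found for 6 of the 8 genes. The CCAAT box (CCAAT on either strand) was present in 4 of these 6, Hmgcs1, Insig1, Idi1 and Sc5d, against 37.5% of all 33469 promoters of the table. The Idi1 promoter held 2 matches, whose first bases lie at -66 and -35 from the gene start. The GC box (GGGCGG on either strand), a binding motif of Sp1, was present in 5 of the 6, all except Idi1, against 33.1% of all promoters. The core of the sterol regulatory element (TCACNCCAC on either strand), the motif bound by SREBP, was in 0 of the 6 windows and in 1.12% of all promoters. No match of one motif overlapped a match of another in these 6 windows. A match describes letters in a window and was not tested for binding.

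Levels below are log2(intensity + 16) after quantile normalization, and differences are on that log2 scale, which understates the change of dim probe sets. A probe set is said to have risen or fallen where its limma p, adjusted by Benjamini-Hochberg over all 18625 probe sets, is under 0.05. Median array intensity ran from 56 to 103.8 before normalization, and the number of arrays limits the precision: the median standard error of a member's difference from vehicle was 0.12. The Gapdh control probe sets at both ends of the transcript give a 3′ to 5′ log2 ratio that grows as RNA fragments shorten, and it differed between groups. It was 0.83 ± 0.06 in vehicle, 0.19 ± 0.07 at 5 mg/kg, 0.18 ± 0.04 at 20, 0.34 ± 0.17 at 50, 0.60 ± 0.21 at 200 and 0.75 ± 0.14 at 500 mg/kg (SD, n = 4). The ratios of the 5, 20 and 50 mg/kg arrays did not overlap with those of vehicle (two-sided exact permutation p = 0.0286 for each, the smallest possible, adjusted p = 0.0476 over 5 doses). The beta-actin ratio was 2.56 in vehicle and 1.69, 1.60 and 1.87 at these doses, with the same p-values. The hexokinase ratio was 2.25 in vehicle and 1.69, 1.77 and 2.23 at these doses. It passed at no dose (exact permutation adjusted p of 0.357 or more).

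The array of 500 mg/kg replicate 4 stood apart: its correlations with the others had a median of 0.855, and the lowest such median among the remaining arrays was 0.957. The summed intensity of 6 of 7 cerebellar neuron markers with a probe set was 13694 on it and 235 to 703 on the other 23 arrays. Its mean log2 level of 5 of 6 excitatory forebrain neuron markers was 7.41, against group means of 9.53 to 9.84 in the groups of vehicle to 200 mg/kg. The label forebrain therefore went against the markers on this array, and results that rest on it are given with and without it.

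Across the doses the cholesterol synthesis genes showed few differences from vehicle, and 1 probe set of Sc5d was the only one called. At 5 mg/kg 1 of 12 probe sets passed the test, beside 5.52% of all probe sets, and it was higher than in vehicle. At 20 mg/kg the same probe set passed, beside 8.48% of all probe sets. At 50 mg/kg 0 of 12 passed beside 0.864% of all, at 200 mg/kg 0 beside 0% and at 500 mg/kg 0 beside 0.00537%. Each of these 5 limma comparisons had 2 of 12 members with an unadjusted p under 0.05, where all probe sets had 18.9% at 5 mg/kg, 21.8% at 20, 12.9% at 50, 5.3% at 200 and 6.9% at 500 mg/kg. At 5, 20 and 50 mg/kg these members were Cyp51 1367979_s_at and Sc5d 1387926_at. At 200 and 500 mg/kg both were probe sets of the same gene, Cyp51. The F test for any difference between the 6 groups called 1 of 12, beside 5.93% of all, with 3 of 12 at an unadjusted p under 0.05, beside 18.6%. The slope over dose rank in limma called 0 of 12, beside 0% of all, with 2 of 12 at an unadjusted p under 0.05, beside 5.73%. Both of these were again probe sets of Cyp51.

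The median difference of the 12 probe sets from vehicle was -0.03 at 5 mg/kg, -0.08 at 20, 0.10 at 50, -0.07 at 200 and -0.03 at 500 mg/kg. Medians over all probe sets lay within 0.01 of 0 at every dose. The members' differences ran from -0.34, for Cyp51 at 500 mg/kg, to 0.47, for Sc5d at 20 mg/kg. The 5 comparisons share the 4 vehicle arrays, so their values are set side by side and are not independent of each other.

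**Figure D1:**
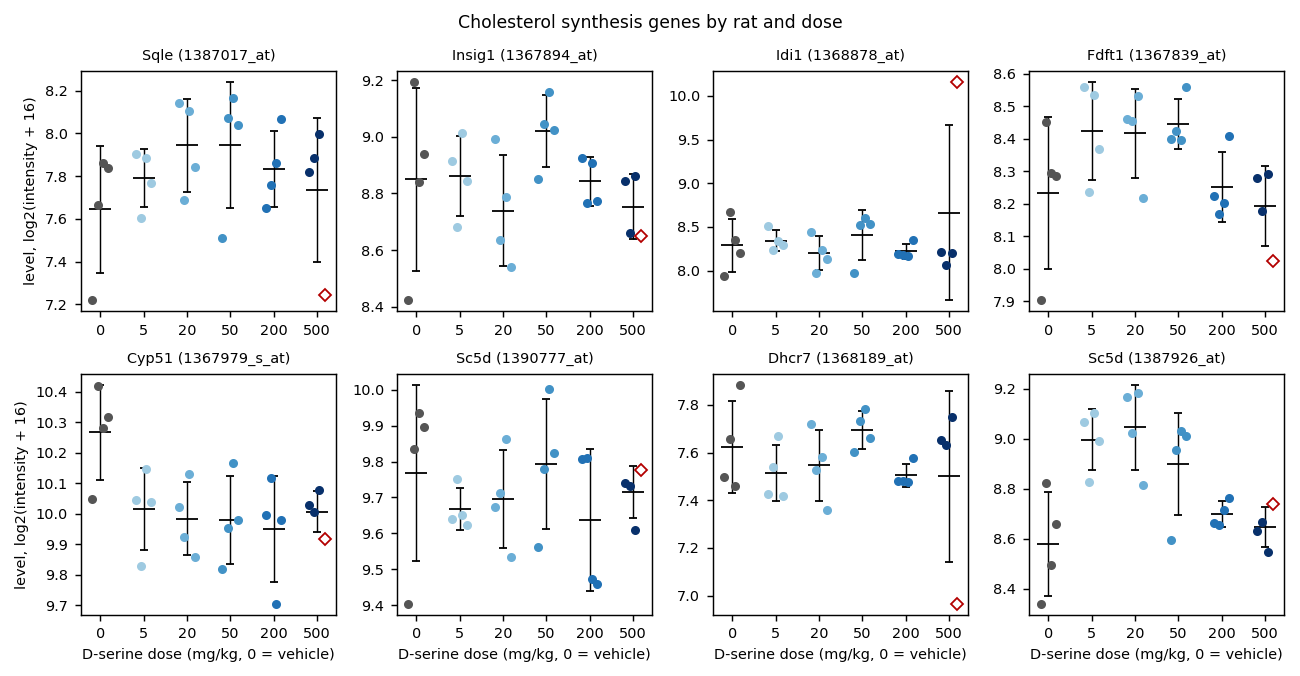
Level, log2(intensity + 16), of the brightest probe set of each of 7 genes and of the Sc5d probe set 1387926_at, against D-serine dose in mg/kg (0 is vehicle). Each point is 1 rat, the bars are the mean and SD of 4 rats, and the open red diamond is 500 mg/kg replicate 4, where Idi1 read 10.16.

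Idi1, the isomerase of isoprenoid precursors, had no dose difference past the test, and a single array set its level at the highest dose. Its brighter probe set (1368878_at) averaged 8.29 ± 0.31 in vehicle, 8.34 ± 0.12 at 5, 8.20 ± 0.20 at 20, 8.41 ± 0.29 at 50 and 8.22 ± 0.09 at 200 mg/kg (SD, n = 4). At 500 mg/kg the 4 rats read 8.22, 8.07, 8.20 and 10.16, against 7.94, 8.67, 8.35 and 8.20 in vehicle. The value of 10.16 belonged to replicate 4, the array with cerebellar transcripts, and the other 23 arrays lay between 7.94 and 8.67. The second Idi1 probe set (1388872_at) read 8.86 on that array and 6.98 to 7.86 on the others. On replicate 4 Idi1 was thus 4.0-fold (1368878_at) and 2.4-fold (1388872_at) above the mean of the other 3 rats given 500 mg/kg. The difference of 500 mg/kg from vehicle was 0.37 ± 0.29 (SE, limma adjusted p = 0.801) with this array and -0.13 ± 0.15 (adjusted p = 0.944) without it.

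Fdft1, squalene synthase, lay slightly above vehicle at the lower doses in its brighter probe set (1367839_at). Differences were 0.19 at 5 mg/kg, 0.18 at 20, 0.21 at 50, 0.02 at 200 and -0.04 at 500 mg/kg, with limma adjusted p from 0.336 to 0.998. The 4 rats given 50 mg/kg read 8.40, 8.42, 8.40 and 8.56, against 7.90, 8.45, 8.29 and 8.28 in vehicle, so the groups overlapped through 1 vehicle array. The second Fdft1 probe set (1389906_at) differed from vehicle by 0.21 and 0.04 at 5 and 20 mg/kg.

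Sqle, squalene epoxidase, read 8.14, 7.69, 8.11 and 7.84 at 20 mg/kg, and read 7.51, 8.07, 8.17 and 8.04 at 50 mg/kg, against 7.22, 7.67, 7.86 and 7.84 in vehicle. The groups overlapped at both doses. The differences were 0.30 at 20 mg/kg (95% interval -0.05 to 0.65, limma adjusted p = 0.328) and 0.30 at 50 mg/kg (-0.05 to 0.65, adjusted p = 0.492). With the Gapdh ratio in the fit they were -0.50 and -0.30, with adjusted p of 0.780 and 0.786. None of these differences passed in either fit. The ratios at these doses did not overlap with those of vehicle, so the sign is not settled by either fit.

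Insig1 differed from vehicle by -0.11 to 0.17 over the 5 doses, and Dhcr7 by -0.12 to 0.07. For Insig1 the 95% interval at 500 mg/kg ran from -0.36 to 0.16, and the vehicle rats alone spanned 8.42 to 9.20, as wide as all 23 arrays. Dhcr7 averaged 7.62 ± 0.19 in vehicle (SD, n = 4). Its group means at the doses lay between 7.50 and 7.69, and replicate 4 of 500 mg/kg was lowest at 6.97.

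Cyp51, lanosterol demethylase, lay below vehicle at all 5 doses in both of its probe sets, and 0 of these 10 differences passed the test. The brighter probe set (1367979_s_at) read 10.05, 9.83, 10.15 and 10.04 in the rats given 5 mg/kg and 10.02, 9.92, 10.13 and 9.86 at 20 mg/kg. It read 9.82, 9.95, 10.17 and 9.98 in rats given 50 mg/kg, 9.997, 10.12, 9.71 and 9.98 in rats given 200 mg/kg and 10.03, 10.01, 10.08 and 9.92 at 500 mg/kg. In vehicle it read 10.05, 10.42, 10.28 and 10.32, so that 3 vehicle arrays lay above all 20 arrays of treated rats and replicate 1 lay among them. Its name ending _s_at marks a probe set that can detect more than 1 transcript.

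The differences of this Cyp51 probe set were -0.25 ± 0.10 at 5 mg/kg, -0.28 ± 0.10 at 20, -0.29 ± 0.10 at 50, -0.32 ± 0.10 at 200 and -0.26 ± 0.10 at 500 mg/kg (SE, limma). The unadjusted p was 0.0167, 0.00805, 0.00728, 0.00354 and 0.0138 in that order of dose, and the adjusted p 0.143, 0.0752, 0.167, 0.755 and 0.698. Its F test gave an adjusted p of 0.232. In the second probe set (1387020_at) the differences were -0.12, -0.19, -0.07, -0.26 and -0.34. Its limma p at 500 mg/kg was 0.00161 unadjusted and 0.506 adjusted. The slope over dose rank was -0.043 in the first probe set and -0.057 in the second (limma adjusted p = 0.832 for each). Without vehicle replicate 1 the first probe set was at -0.35 at 20 mg/kg with an adjusted p of 0.0372, and it passed in no other single omission.

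Oligodendrocyte markers also had lower means than vehicle at every dose. The mean log2 level of 11 of 12 such markers was 9.69 ± 0.15 at 5 mg/kg, 9.60 ± 0.36 at 20, 10.08 ± 0.32 at 50, 10.06 ± 0.52 at 200 and 9.97 ± 0.22 at 500 mg/kg, against 10.13 ± 0.61 in vehicle (SD, n = 4), with exact permutation p of 0.257 or more. Their summed intensity ran from 12826 to 29579 over the arrays, and 0 of the markers was at 0 on any. With this marker level in the fit and 500 mg/kg replicate 4 left out, the Cyp51 differences were -0.16 at 5 mg/kg, -0.17 at 20, -0.28 at 50, -0.30 at 200 and -0.19 at 500 mg/kg. Leaving out that array alone moved the 500 mg/kg mean of 1367979_s_at from 10.01 to 10.04, against 10.27 in vehicle. Whether the marker level accounts for the Cyp51 differences was not tested. In whole tissue, fewer cells of a type and less RNA per cell cannot be told apart.

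Sc5d, sterol desaturase, rose at the lowest doses in 1 of its 3 probe sets. That probe set (1387926_at) read 9.07, 8.83, 9.10 and 8.99 at 5 mg/kg and 9.17, 9.02, 9.18 and 8.81 at 20 mg/kg, against 8.34, 8.82, 8.49 and 8.66 in vehicle. It read 8.59, 8.95, 9.03 and 9.01 in rats given 50 mg/kg, 8.66, 8.65, 8.72 and 8.76 in rats given 200 mg/kg and 8.63, 8.67, 8.55 and 8.74 at 500 mg/kg. All 4 rats given 5 mg/kg lay above all vehicle rats, by a narrow margin, and at 20 mg/kg the lowest rat lay just under the highest vehicle rat.

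At 5 mg/kg the rise was 0.42 ± 0.11 (SE, limma adjusted p = 0.0247), which is 1.34-fold. At 20 mg/kg it was 0.47 ± 0.11 (adjusted p = 0.00845), which is 1.38-fold. Differences of 0.32 at 50 mg/kg (adjusted p = 0.167), 0.12 at 200 and 0.07 at 500 mg/kg did not pass, and the F test over the groups had an adjusted p of 0.0202. Among the treated groups alone the slope was -0.10 per dose step (limma adjusted p = 0.00505), in a fit that called 10.3% of all probe sets. Over these groups the mean Gapdh ratio went from 0.19 and 0.18 at 5 and 20 mg/kg to 0.75 at 500 mg/kg. The animal numbers on the labels fall as dose rises among treated rats. Dose, ratio and animal order therefore cannot be told apart in this slope. The call at 5 mg/kg was lost without any of vehicle replicates 1 and 3 or 5 mg/kg replicates 1, 3 and 4, with adjusted p of 0.0511 to 0.106 and values of 0.34 to 0.42. The call at 20 mg/kg held in all 24 omissions of 1 array (adjusted p 0.00366 to 0.0417), and the F test was lost without 20 mg/kg replicate 3 (adjusted p = 0.0533).

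The other Sc5d probe sets did not follow. The brightest (1390777_at) differed from vehicle by -0.10 at 5 mg/kg, -0.07 at 20 and 0.02 at 50 mg/kg, and the third (1389111_at) by -0.08, -0.01 and -0.07. Their 95% intervals at 20 mg/kg were -0.31 to 0.16 and -0.19 to 0.18, both below the 0.47 of 1387926_at, although the difference between probe sets was not tested. As deposited, without normalization, 1389111_at was at 0.45 at 20 mg/kg (adjusted p = 0.0424), where the median of all probe sets was itself 0.37.

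**Figure D2:**
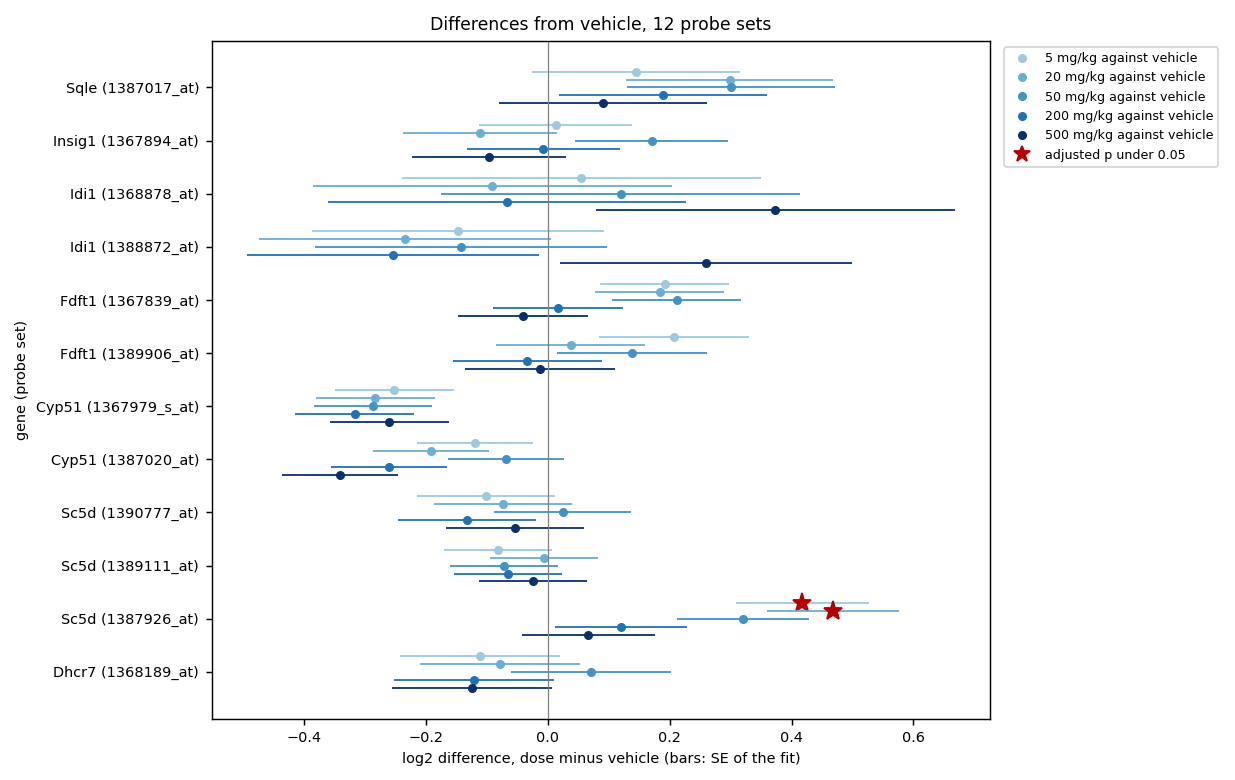
Log2 difference of each D-serine dose from vehicle for the 12 probe sets of 7 cholesterol synthesis genes, with bars for the standard error of the fit over all 24 arrays. Red stars mark adjusted p under 0.05, which only Sc5d 1387926_at reached, at 0.42 and 0.47; Cyp51 lay below 0 in both probe sets at all 5 doses.

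The Gapdh ratio of the arrays went with the level of Sc5d 1387926_at. The 8 rats given 5 or 20 mg/kg had Gapdh ratios of 0.10 to 0.26 and Sc5d levels of 8.81 to 9.18, against ratios of 0.76 to 0.89 and levels of 8.34 to 8.82 in vehicle. At 50 mg/kg, replicate 1 had the highest ratio of its group, 0.57, and the lowest Sc5d level, 8.59. The other 3 rats had ratios of 0.18 to 0.34 and levels of 8.95 to 9.03. On replicate 1 the brightest probe sets of all 7 genes lay below their group mean. A relation of 1387926_at with the ratio within groups was not tested. With the Gapdh ratio as a term in the fit, the differences were 0.13 ± 0.19 at 5 mg/kg (adjusted p = 0.909) and 0.17 ± 0.20 at 20 mg/kg (adjusted p = 0.879). Ratio and dose group overlap so little that the standard error grew from 0.11, and the dose and the ratio cannot be told apart at these doses.

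**Figure D3:**
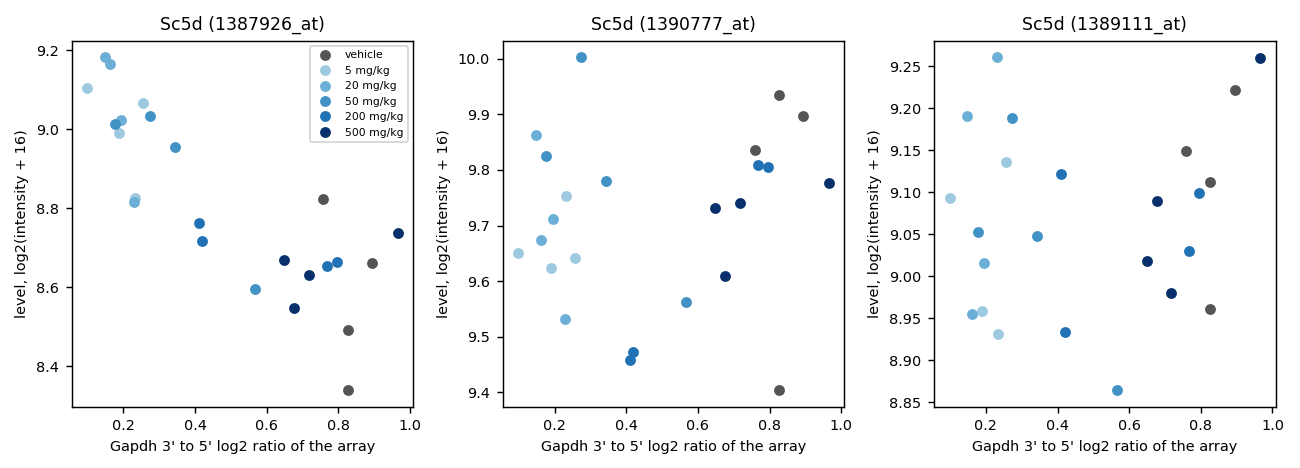
Level, log2(intensity + 16), of the 3 Sc5d probe sets against the Gapdh 3′ to 5′ log2 ratio of the same array, 1 point per rat, coloured by dose group. Sc5d 1387926_at is highest, 8.81 to 9.18, where the ratio is lowest, at 5 and 20 mg/kg; the other probe sets show no such order of groups.

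Rats of the same group differed from each other in a shared way across these genes. For this the group mean was taken off each gene's brightest probe set, and 500 mg/kg replicate 4 was left out, so that 23 arrays remained. All 21 pairs of the 7 genes correlated positively, with Pearson's r from 0.30 to 0.79 and a median of 0.60. Over the 71386 relations of a member with any other gene the median r was 0.00, 50.2% were positive, and the 95th percentile was 0.47, which 14 of the 21 pairs exceeded.

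Of the 21 pairs, 17 had an adjusted p under 0.05 for r and 14 for Spearman's rho (permutation test with 100000 resamples, two-sided, Benjamini-Hochberg over the pairs). Permuting only within groups, a setting chosen after the data were seen, left 11 pairs. The members were chosen with earlier results of these data known, so these p-values are no independent support. Without the pair of arrays farthest from the median of 1 gene, 19 of 21 pairs were still positive, with r from -0.09 to 0.65. That gene was the earlier in the order Sqle, Insig1, Idi1, Fdft1, Cyp51, Sc5d, Dhcr7. Extreme arrays of the other gene could remain. Without vehicle replicate 1 alone, the median r was 0.47 and 8 pairs passed.

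With each gene's brightest probe set, the closest pair was Insig1 and Idi1, with r = 0.79 and rho = 0.66. The permutation adjusted p of this pair was 0.00021 for r, and 0.0202 within groups. Without the pair of arrays farthest from the median of Insig1, its r was 0.64. Sqle and Idi1 followed with r = 0.78 and rho = 0.72 (permutation adjusted p = 0.00021, and 0.0202 within groups), and Insig1 and Fdft1 with r = 0.75 and rho = 0.57 (0.00063, and 0.0218 within groups). Cyp51 and Sc5d, the late sterol enzymes, had r = 0.68 and rho = 0.58 (permutation adjusted p = 0.00247, and 0.0218 within groups). Dhcr7 and Sc5d were the loosest pair, with r = 0.30 and rho = 0.29 (permutation adjusted p = 0.163).

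This order depended on the probe set. Sc5d 1387926_at, the probe set called by dose, correlated at 0.80 with Insig1, 0.79 with Idi1 and 0.58 with Dhcr7, against 0.51, 0.44 and 0.30 for the brightest Sc5d probe set. The second Idi1 probe set (1388872_at) correlated at 0.80 with Sqle and at 0.35 with Sc5d.

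The array of 500 mg/kg replicate 4 turned 3 of the 6 pairs with Idi1 negative. With all 24 arrays Idi1 correlated with Sqle at -0.18, with Fdft1 at -0.01 and with Dhcr7 at -0.60, while the 15 pairs without Idi1 ran from 0.11 to 0.75. On that array Idi1 was high and Sqle and Dhcr7 were low, at 7.24 and 6.97.

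**Figure D4:**
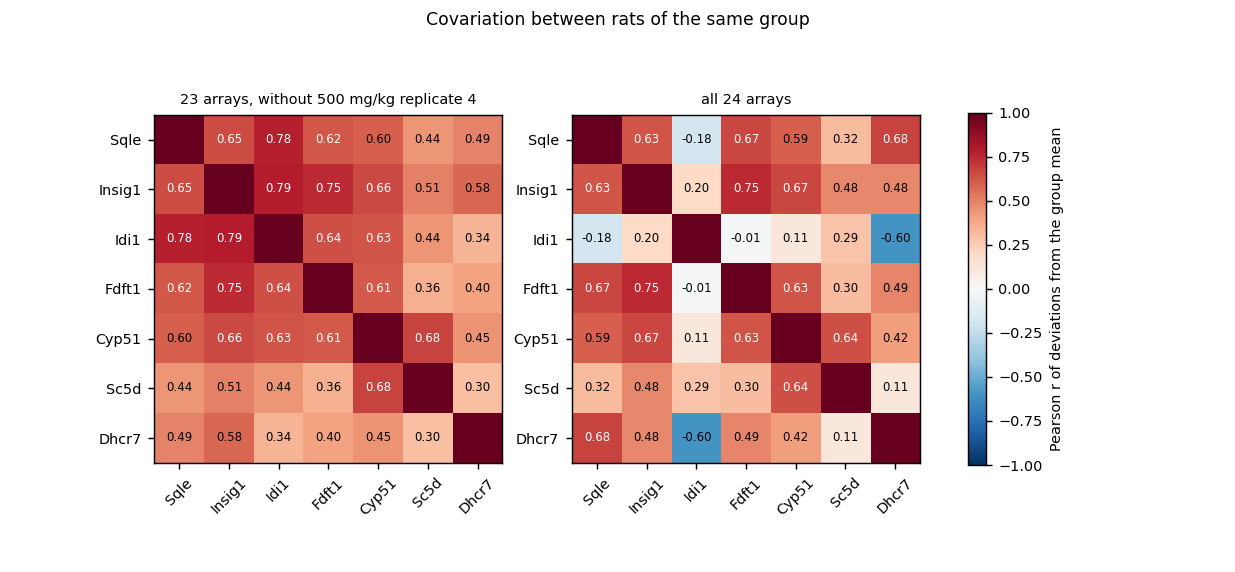
Pearson correlations between the 7 genes of their log2 deviations from the group mean, over 23 arrays without 500 mg/kg replicate 4 (left) and over all 24 arrays (right), on a colour scale from -1 to 1. All pairs are positive on the left, 0.30 to 0.79; on the right the row of Idi1 turns pale or blue, down to -0.60 with Dhcr7.

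Single rats show the pattern. In vehicle replicate 1 all 7 genes lay below their group mean, with a median deviation of -0.35, and in vehicle replicate 2 all 7 lay above it, with a median of 0.15. All 7 were also below it in 20 mg/kg replicate 4 (-0.16) and 50 mg/kg replicate 1 (-0.17), and all 7 above it in 20 mg/kg replicate 3 (0.12). These are 5 of 23 arrays, and on 12 of 23 at least 6 of the 7 genes lay on the same side.

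The probe sets of a gene followed each other to different degrees. Over the same 23 arrays the Idi1 probe sets correlated at 0.79 and those of Cyp51 at 0.59. The Fdft1 probe sets correlated at 0.39 and the 3 of Sc5d at 0.40 to 0.50, which is no closer than many pairs of different members.

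The 5 nearest genes of Sqle and of Cyp51 held further enzymes of lipid synthesis. Among 10204 genes, the one closest to Sqle was Acat2, the thiolase at the start of the pathway (r = 0.90), and Scd, the stearoyl-CoA desaturase of fatty acid synthesis, was also among its nearest 5 (r = 0.79), with Cct8, Polr2g and Idi1. For Cyp51 the closest gene was Msmo1, a sterol methyl oxidase that acts later in the pathway (r = 0.85), then Rap2a, Rap1a, C19h1orf198 and Serinc5. For Insig1 the nearest were Abl1 (r = 0.87), Dad1, Ptpre, Slc8a1 and Idi1, and for Fdft1 Hsp90ab1 (r = 0.77), Mrpl1, Gpr83, Cdc37 and Insig1.

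The remaining members had no other member among their nearest genes. Idi1 was closest to Slc35e3 (r = 0.84), Epm2aip1, Ptpre, Comtd1 and Tufm, and Sc5d to Slc35a1 (r = 0.84), Hivep1, Dync1li2, Mmgt2 and Tsnax. Dhcr7 had the weakest neighbours, from Prkag2 (r = 0.73), a subunit of the AMP-activated kinase, through Bspry, Ptrh2 and Taldo1 to Ywhaq (r = 0.69).

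**Figure D5:**
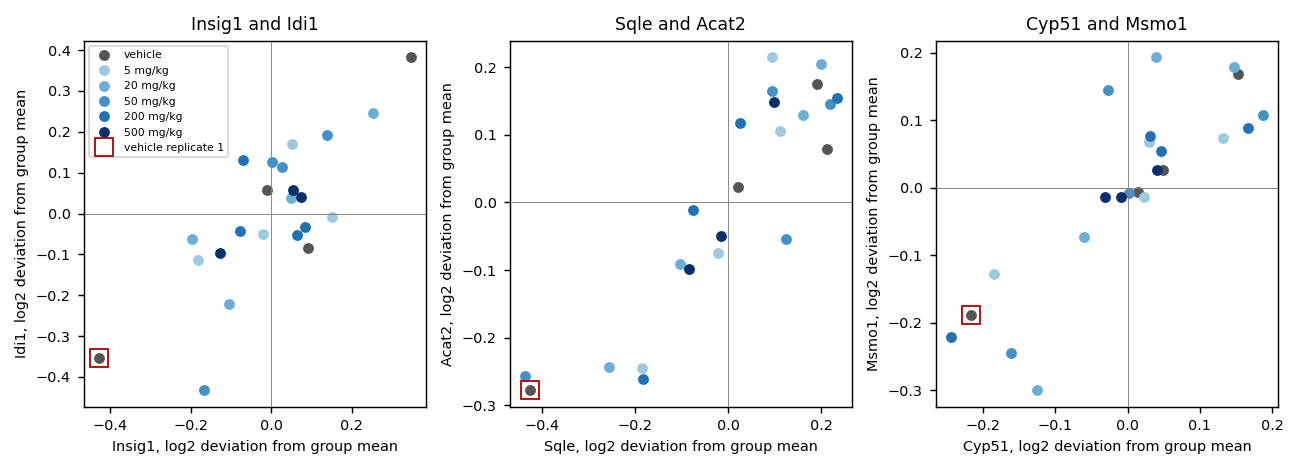
Log2 deviations from the group mean on 23 arrays for Insig1 and Idi1 (r = 0.79), Sqle and Acat2 (r = 0.90) and Cyp51 and Msmo1 (r = 0.85), 1 point per rat, coloured by dose group. The red square marks vehicle replicate 1, which lies at the low end of all 3 plots.

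The companion lists differed in how they varied with the members between rats. Of 84 relations between a member and another enzyme of cholesterol synthesis 81 were positive, with a median r of 0.43, and for the fatty acid synthesis enzymes 46 of 56 were positive, with a median of 0.32. For sterol sensing and SREBP genes 20 of 42 were positive (median -0.02), for uptake and intracellular transport 18 of 49 (median -0.14), and for efflux, turnover and carriers 15 of 35 (median -0.06). Within the sensing list Srebf1, which codes for SREBP1, had r from 0.30 with Sc5d to 0.67 with Insig1, the highest of the 42. With all 24 arrays its r with Idi1 was -0.24, against 0.47 here. Srebf2, which codes for SREBP2, ran from -0.25 with Fdft1 to 0.38 with Sc5d. Insig2, the second brake, ran from -0.46 with Cyp51 to -0.06 with Sc5d.

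By dose the companion lists gave 1 call, that of Acat2 at 20 mg/kg, where 8.48% of all probe sets were called. Acat2 read 7.87, 7.43, 7.80 and 7.58 at 20 mg/kg, against 6.92, 7.22, 7.28 and 7.38 in vehicle, and the groups did not overlap. It rose by 0.47 ± 0.13 on the log2 scale (SE, limma adjusted p = 0.0263), and was at 0.36 at 5 mg/kg (adjusted p = 0.120). The call was lost without vehicle replicate 1 or 2, or 20 mg/kg replicate 1 or 3 (adjusted p 0.0503 to 0.107) and with only the 8 arrays of both groups (adjusted p = 0.0557). With the Gapdh ratio in the fit the difference was -0.03 (adjusted p = 0.988). The other 11 of 12 measured cholesterol synthesis enzymes passed at no dose, and the list's median difference at 20 mg/kg was 0.09, against -0.01 for all genes.

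In the same limma fit the sensing, uptake, efflux and fatty acid lists had 0 of 26 measured genes past a test by dose. Of all probe sets 5.52% passed at 5 mg/kg, 8.48% at 20, 0.864% at 50, 0% at 200 and 0.00537% at 500 mg/kg. At an unadjusted p under 0.05 they had 2 of 26 at 5 mg/kg, 5 at 20, 1 at 50, 1 at 200 and 4 at 500 mg/kg, where all probe sets had 18.9%, 21.8%, 12.9%, 5.3% and 6.9% in that order of dose. In sterol sensing Insig2, the second brake, was at 0.26 at 5 mg/kg (adjusted p = 0.0860) and 0.23 at 20 mg/kg (adjusted p = 0.114). It passed under other scalings: with arrays centred on the median Insig2 was at 0.34 and 0.33 at these doses (adjusted p = 0.0371 and 0.0345), and as deposited at 0.48 and 0.64 (adjusted p = 0.0428 and 0.00181), where the median of all probe sets was 0.19 and 0.37. Scap was at -0.20 at 500 mg/kg (adjusted p = 0.736), or -0.06 without replicate 4. In uptake Scarb1, a lipoprotein receptor, was at 0.23 at 50 mg/kg (adjusted p = 0.535) and Mylip, which marks the LDL receptor for degradation, at 0.33 (adjusted p = 0.420). In efflux and turnover Cyp46a1, the neuronal cholesterol hydroxylase, was at -0.75 at 500 mg/kg (adjusted p = 0.716) and at -0.10 without replicate 4. Apoe, the lipoprotein carrier, was at -0.21 (adjusted p = 0.729) and at -0.06 without it.

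All 8 fatty acid synthesis enzymes lay below vehicle at 500 mg/kg, with a median of -0.13 (-0.11 without replicate 4, 8 of 8 below). Of all probe sets 50.7% lay above vehicle at this dose. In limma 0 of 8 passed (2 at an unadjusted p under 0.05, beside 6.9% of all probe sets). The list's medians at 5, 20, 50 and 200 mg/kg were -0.13, -0.14, -0.09 and -0.16, with 6, 6, 6 and 7 of 8 below. Acaca, acetyl-CoA carboxylase, was at -0.24 at 5 and at 20 mg/kg (adjusted p = 0.0824 and 0.0641), and Fads2, a fatty acid desaturase, at -0.35 at 200 mg/kg (adjusted p = 0.975).

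Of 28 relations between a member and an array measure, 2 passed between rats, both with the oligodendrocyte marker level. Cyp51 followed it at r = 0.63 and rho = 0.58 (permutation adjusted p = 0.0283 for r and 0.0622 for rho), and Sc5d at r = 0.60 and rho = 0.63 (0.0283 and 0.0328). Without the pair of arrays farthest from the median marker level, r was 0.39 for Cyp51 and 0.41 for Sc5d. The other members had r of 0.16 to 0.33 with this level. With the Gapdh ratio, Sqle had r = -0.53 (permutation adjusted p = 0.0776), and -0.64 (adjusted p = 0.0169) with all 24 arrays. Within the groups the brightest Sc5d probe set had r = 0.15 with that ratio. Astrocyte markers gave r from -0.49, for Sc5d, to -0.03, for Idi1, with 0 of 7 past the permutation test (1 at an unadjusted p under 0.05). The part of cell make-up and of RNA quality in the shared variation was not tested.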

How the data were processed

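The labels describe total RNA from forebrain tissue of 24 rats, 1 array each. The deposited values are probe set intensities on a linear scale, made by the authors with GCOS per the submitters' processing notes, whose version and settings the sources used here do not give. Gene symbols came from the platform annotation, where 20832 probe sets had 1 symbol, 436 several and 9831 none. Hmgcs1 matched none and was not analysed here.

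Array medians of log2 values spanned 0.73, so log2(intensity + 16) was quantile normalized. The 57 control and the dimmest 40% of probe sets were left out. Groups were compared in limma 3.58.1 (R 4.3.3) with 1 fit over all arrays, an intensity trend and Benjamini-Hochberg adjustment; the script was tested on simulated data. The F test and a slope over dose rank used the same table. Array quality measures were compared by exact permutation. Nothing in the labels says how the rats were processed together, and replicate spread is that between rats. The labels do number the animals, in runs that do not interleave between dose groups. Vehicle rats have the lowest numbers, and among treated rats the numbers fall as dose rises. Dose and any effect of that order therefore cannot be told apart.

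The members and lists were chosen with earlier results of these data known. The brightest probe set stood for a gene, and the 5 genes of highest r were its neighbours. Of each list the genes past a test were named, or otherwise those 2 with the smallest F test p. Srebf1 and Srebf2 were named after their values were seen. Alternatives covered filter, normalization, pseudocount, array weights, covariates, omission of each array and, chosen after seeing the data, permutation within groups.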

Additional observations from a re-analysis of the deposited data

Results flagged for a closer look

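Each of the 12 probe sets was looked at in each of the 6 groups of 4 rats, and in 6 of these 72 sets of values, which share the same rats, 1 array lay far from the other 3 by Dixon's test at the 95% level, where chance gives about 3.6. Idi1 (1368878_at) had 3 of these: 10.16 in 500 mg/kg replicate 4, with the nearest other rat at 8.22, 7.98 in 50 mg/kg replicate 1 (nearest 8.52) and 8.35 in 200 mg/kg replicate 4 (nearest 8.19). Dhcr7 had 6.97 in 500 mg/kg replicate 4 (nearest 7.63) and 7.58 in 200 mg/kg replicate 4 (nearest 7.48). Fdft1 (1367839_at) read 8.56 in 50 mg/kg replicate 4 (nearest 8.42). The array of 500 mg/kg replicate 4 carries the cerebellar transcripts described above.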

How the results depend on the processing

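As deposited, without normalization, 4 members' probe sets were called at 20 mg/kg and 3 by the F test, where all probe sets had 6910 and 5619 calls against 1580 and 1105, and Sc5d 1389111_at turned to 0.45 (adjusted p = 0.0424). With array weights 1 was called at 50 mg/kg (Sc5d 1387926_at, 0.37), where all probe sets had 720 calls against 161, 1673 against 1028 at 5 mg/kg, 2432 against 1580 at 20 mg/kg and 2340 against 1105 by the F test. With only the 8 arrays of both groups 0 were called at 5 mg/kg. With the Gapdh ratio in the fit 0 were called at 5 mg/kg, 0 at 20 mg/kg and 0 by the F test, of all probe sets too, also with 500 mg/kg replicate 4 left out, where Sc5d 1387926_at was at -0.013 at 5 mg/kg. The slope over the treated groups called 1 member and 1914 of all probe sets, against 0. At 50 mg/kg all probe sets had 102 calls with no filter, 107 with median centring, 56 as deposited, 55 with only 8 arrays, 561 with the oligodendrocyte level in the fit and 452 without 500 mg/kg replicate 4, which gave 1668 at 5 mg/kg. With all 24 arrays r was -0.18 for Sqle and Idi1, -0.011 for Idi1 and Fdft1 and -0.60 for Idi1 and Dhcr7. Without removal of group means the median r was 0.44 and 9 pairs passed, and 11 passed with permutation within groups. Leaving out each array gave 0 to 1 calls at 5 mg/kg, 1 to 2 at 20 mg/kg, 0 to 1 at 50 mg/kg, 0 at 200 and 500 mg/kg, 0 to 1 by the F test, a median r of 0.47 to 0.63 and 8 to 19 passing pairs. The causes of these changes were not tested. No paired analysis was possible because the labels number each rat on its own. With 4 arrays a group and a median standard error of 0.12, small differences in these genes were not detectable.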
